A study of Mus musculus with 16 samples.

Results

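The genes described here encode the proteins of the cytosolic ribosome. They were taken as the mouse gene symbols Rpl or Rps followed by a number, together with Rplp0, Rplp1, Rplp2 and Rpsa, leaving out the Rps6k kinases and pseudogenes. Where several probe sets carried a gene's symbol and no other, the one with the highest mean signal across the 16 arrays stood for the gene. The rule found 69 genes of the 17097 genes so measured, 44 of the large subunit and 25 of the small subunit, and all 69 passed the filter on low signal. A further 18 RefSeq symbols of the same form were not analysed here.

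Cytosolic ribosomes translate nearly all cellular mRNA, and their proteins are made in matched amounts from many genes scattered over the genome. Mammalian ribosomal protein mRNAs typically begin with a run of pyrimidines, the 5′ terminal oligopyrimidine tract, through which the kinase mTORC1 and the binding protein Larp1 control their translation. Transcription of the genes is promoted by Myc in growing cells, and free ribosomal proteins such as Rpl5 and Rpl11 bind Mdm2 and so stabilise p53 when ribosome assembly fails.

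Total RNA was measured from luminal cells of the mammary gland, isolated by fluorescence-activated cell sorting, on single-colour Affymetrix arrays. By its title the study concerned luminal differentiation and tumour formation under the control of p38α, a stress-responsive protein kinase whose gene is Mapk14. There were 4 groups of 4 arrays, and every group carried MMTV-Cre, a Cre recombinase driven by the mouse mammary tumour virus promoter in mammary epithelium. The group called MMTV-Cre carried nothing else and the group called p38a-lox also carried floxed p38α, both from mice of 9 weeks. The group called PyMT carried MMTV-Cre and MMTV-PyMT, a transgene that expresses polyoma middle T, a viral oncoprotein, and gives rise to mammary tumours, and the group called p38a-lox PyMT carried all 3, both from mice of 6 weeks. Age and PyMT therefore cannot be told apart. Nothing in the labels ties an array to an animal of its own, so each p measures only the spread between these samples, which may be technical.

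Values are log2 signals after RMA, which equalises the distribution of signals between arrays, so total RNA per cell cannot be read from them. In sorted bulk cells, fewer cells of a type and less RNA per cell cannot be told apart. Array medians lay between 4.63 and 4.88. Luminal keratins were bright in every group (Krt8 group means from 12.17 to 12.38, Krt18 from 12.05 to 12.17). The probe set used for Mapk14 averaged 6.53 ± 0.885 (SD, n = 4) in MMTV-Cre and 7.31 ± 0.862 in p38a-lox, and 7.20 ± 0.321 in PyMT and 7.23 ± 0.103 in p38a-lox PyMT. It was thus not lower in arrays labelled p38a-lox, where its probes lie relative to the deleted part was not analysed here, and p38a-lox below means arrays with that label. 2 arrays stood apart, with a median correlation of 0.934 to the other arrays: p38a-lox replicate 2 and PyMT replicate 4. The first was the highest of the 16 arrays for 35 members and the second the lowest for 29.

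The letters around the annotated start are shown for the members called between arrays with and without PyMT that are in the promoter table, and for 3 members with a long pyrimidine run. Each line gives 15 bases before the RefSeq start (GRCm38.p6) and 15 from it on, on the strand of the gene, with the longest run of C or T in capitals.
Rps19, chr7:24884577-24884606, plus strand: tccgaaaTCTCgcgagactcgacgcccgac
Rpl13, chr8:123102335-123102364, plus strand: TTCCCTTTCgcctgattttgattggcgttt
Rps18, chr17:33955651-33955680, minus strand: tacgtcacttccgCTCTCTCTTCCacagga
Rps9, chr7:3704026-3704055, plus strand: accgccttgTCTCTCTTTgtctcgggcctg
Rps27l, chr9:66946071-66946100, plus strand: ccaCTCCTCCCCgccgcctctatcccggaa
Rps6, chr4:86857353-86857382, minus strand: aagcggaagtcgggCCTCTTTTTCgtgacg
Rpl27a, chr7:109519180-109519209, plus strand: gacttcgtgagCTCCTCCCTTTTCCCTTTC
Rpl35, chr2:39005117-39005146, minus strand: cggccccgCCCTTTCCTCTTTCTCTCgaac

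In these windows a pyrimidine run crosses the start in Rps18, Rps9, Rps6, Rpl27a and Rpl35, while the longest run of Rps19 has 4 letters and that of Rpl13 lies before the start. For Rps9 and Rps27l the start of the table is not the gene's outermost annotated start. The table held 55 of the 69 members. A run of at least 8 pyrimidines was found in the window of 21 of them (38.2%), against 11.9% of all 27025 genes in the table, and a run of at least 8 purines in 1.82%, against 13.01%. The letters CGGAAG, read on either strand over the 300 bases from 250 before the start to 50 after it, occurred in 40 members (72.7%), against 17.0% of all genes and 26.6% of the genes tested on the arrays. CGGAAG is the core of sites bound by ETS family factors, and a match to these letters is a description of sequence only.

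Of the 69 members, 65 had a mean signal between 10.72 and 12.87 on the log2 scale. Rpl14 averaged 8.22, and Rpl39l, Rpl3l and Rps15a lay between 3.88 and 4.28, near the filter of 3.67. The differences of Rpl39l, Rpl3l and Rps15a are therefore between signals close to the floor of the arrays. For Rps15a no other probe set carried its symbol alone, and whether the probe set used reports the transcript was not tested. Across the 16 arrays the smallest standard deviations were those of Rps16 (0.070), Rps20 (0.082) and Rpl23 (0.083), and the largest those of Rps19 (0.432), Rpl14 (0.375) and Rps27l (0.360). Rps19, mutated in Diamond-Blackfan anaemia, is needed for maturation of the small subunit's ribosomal RNA. The mean over all members was 11.526, 11.585, 11.556 and 11.597 in the MMTV-Cre arrays and 11.555, 11.732, 11.582 and 11.526 in p38a-lox. It was 11.443, 11.450, 11.371 and 11.342 in the PyMT arrays and 11.528, 11.537, 11.461 and 11.456 in p38a-lox PyMT. The PyMT arrays lay below all others, and the p38a-lox PyMT arrays overlapped with the groups without PyMT.

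**Figure D1:**
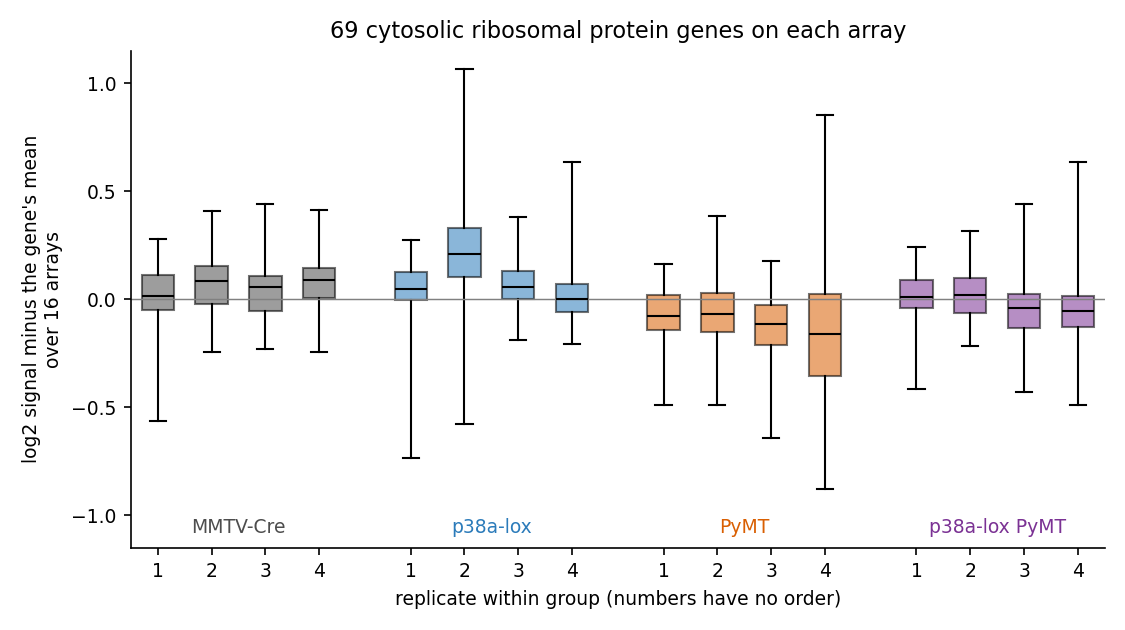
Box plots of the 69 members on each of the 16 arrays, each value being the log2 signal minus that gene's mean over the arrays (box, quartiles; line, median; whiskers, lowest and highest member). The box of p38a-lox replicate 2 is the highest, and PyMT replicate 4 has the lowest median and the widest spread.

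The clearest difference among these genes accompanied PyMT. When the 8 arrays with PyMT were set against the 8 without, a comparison added after the data were seen, 63 of the 69 members had lower estimates, with a median log2 difference of −0.135 against 0.000 over all 14410 genes tested. Of these, 5 fell at an adjusted p below 0.05 (Rps19, Rpl13, Rps9, Rps18 and Rpl21), in a comparison in which 2.51% of all genes were called lower. The paralog Rps27l rose, where 3.67% of all genes were called higher. The number called was 3 without MMTV-Cre replicate 4 or p38a-lox PyMT replicate 3, 4 without each of 6 other arrays, and 0 when only probe sets without an x, s or a suffix, which mark probes shared between transcripts, were used. In that last setting 29 members were tested, of which 19 were lower, with a median of −0.102. Of the called members it held only Rpl21, through a dim probe set with a mean of 5.64 (−0.30 ± 0.168). The others had no unsuffixed probe set and could not be called there.

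Rps19, the small subunit protein above, read 10.968, 11.021, 10.839 and 10.933 in MMTV-Cre and 10.861, 11.783, 10.837 and 10.881 in p38a-lox. It read 10.518, 10.227, 10.223 and 9.852 in PyMT and 10.698, 10.666, 10.390 and 10.754 in p38a-lox PyMT. All 8 arrays with PyMT lay below all 8 without. The difference was −0.60 ± 0.141 (SE), or 1.51-fold lower (adjusted p = 0.0207), and −0.40 without the 2 arrays that stood apart. Its call was lost without p38a-lox PyMT replicate 3 (adjusted p = 0.0505).

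Rps18, at the head of the small subunit, read 11.136, 11.457, 11.288 and 11.427 in MMTV-Cre and 11.115, 11.358, 11.383 and 11.131 in p38a-lox. It read 10.976, 10.832, 10.760 and 10.889 in PyMT and 11.050, 11.113, 10.986 and 10.974 in p38a-lox PyMT. The groups did not overlap, although only narrowly, since the highest array with PyMT was at 11.113 and the lowest without at 11.115. The difference was −0.34 ± 0.080 (adjusted p = 0.0209), 1.27-fold lower, with an adjusted p of 0.0501 without MMTV-Cre replicate 4.

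Rps9, which helps to keep decoding accurate, read 11.859, 11.838, 11.787 and 11.826 in MMTV-Cre and 11.860, 12.072, 11.701 and 11.715 in p38a-lox. It read 11.546, 11.365, 11.368 and 10.908 in PyMT and 11.687, 11.733, 11.571 and 11.554 in p38a-lox PyMT. Here p38a-lox PyMT overlapped with p38a-lox, and the PyMT arrays lay below all others. The difference was −0.37 ± 0.096 (adjusted p = 0.0360), a call lost in 8 of the 16 fits that left out 1 array (replicates 1, 3 and 4 of MMTV-Cre, 1 and 2 of p38a-lox, and 2, 3 and 4 of p38a-lox PyMT), with adjusted p up to 0.0782.

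Rpl13, of the large subunit, read 11.003, 10.893, 11.190 and 11.100 in MMTV-Cre and 10.819, 11.452, 10.890 and 10.854 in p38a-lox. It read 10.525, 10.511, 10.372 and 10.526 in PyMT and 10.842, 10.731, 10.504 and 10.468 in p38a-lox PyMT. The 4 PyMT arrays were low and close together, and p38a-lox PyMT replicate 1 reached into the range of p38a-lox. The difference was −0.47 ± 0.104 (adjusted p = 0.0170). But a second probe set of the gene gave 0.55 ± 0.319 the other way, in a fit of all probe sets except controls, without the filter on low signal. The mean of both gave 0.04 (adjusted p = 0.931), so the direction depends on the probe set.

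Rpl21, a large subunit protein, lay between 11.372 and 11.631 in the 8 arrays with PyMT (median 11.564) and between 11.657 and 11.964 in the 8 without (median 11.803). No array with PyMT reached the others. The difference was −0.26 ± 0.072 (adjusted p = 0.0455), and a second probe set, in the fit of all probe sets, gave −0.24 ± 0.062. Its call was lost in 15 of the 16 fits that left out 1 array, the exception being p38a-lox replicate 4, with adjusted p up to 0.103.

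Rps27l, a paralog of Rps27 and a target of p53, went the other way. It read 10.352, 10.728, 10.684 and 10.907 in MMTV-Cre and 10.180, 10.665, 10.910 and 10.750 in p38a-lox. It read 11.081, 11.301, 11.095 and 11.396 in PyMT and 10.879, 11.076, 11.109 and 11.550 in p38a-lox PyMT. Only p38a-lox PyMT replicate 1 reached down into the arrays without PyMT. The difference was 0.54 ± 0.129, 1.45-fold higher (adjusted p = 0.0228). In the fit of all probe sets, all 3 of the gene were higher (0.54, 0.57 and 0.67). Without the 2 arrays that stood apart its adjusted p was 0.0534. Cdkn1a, another p53 target, was at 0.66 ± 0.285 (adjusted p = 0.210), and Rps27 itself was not analysed here. Of the 10 tested genes in the ribosome stress list from which Cdkn1a comes, 4 were higher and 6 lower (median −0.099). None of these 10 was called, and a p53 response was not tested.

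**Figure D2:**
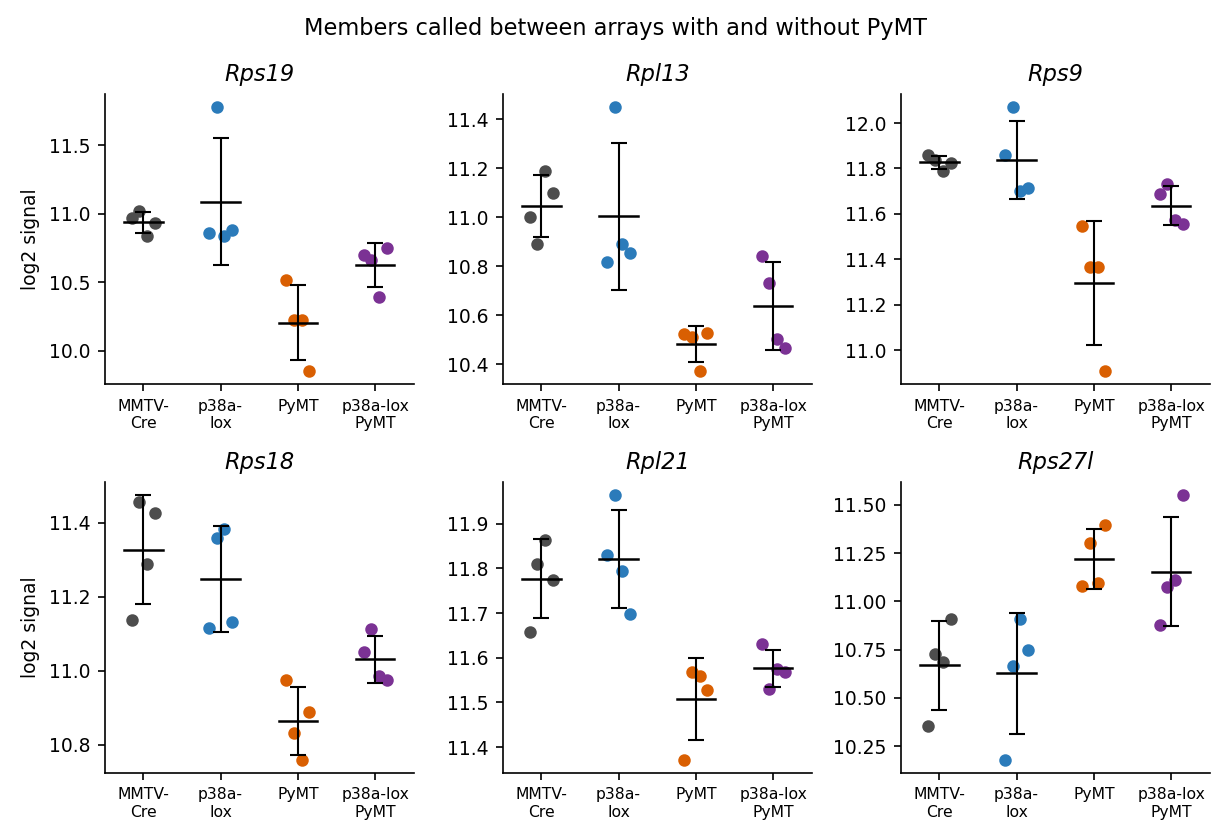
Log2 signal of the 6 members called between arrays with and without PyMT, in each of the 4 groups (points, arrays; line and bar, mean ± SD of 4 arrays). Rps19, Rpl13, Rps9, Rps18 and Rpl21 are lower in the PyMT groups and Rps27l is higher, with differences from −0.60 to 0.54.

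With PyMT, 4 members lay below every array without it (Rpl21, Rpl26, Rps18 and Rps19), where 0.396% of all genes did, and 0 lay above, where 0.666% did. Within the 9 arrays whose title numbers are up to 2100, the median member difference was −0.145, against −0.007 over all genes, with 60 members lower. Within those above 2100 it was −0.109, against −0.003 over all genes, with 66 members lower. The 6 called members kept their sign in both ranges, for example Rps19 at −0.77 and −0.42 and Rps27l at 0.67 and 0.44. They were called on these same arrays, so their signs here are a description and not a second test. For Rpl21, Rps18 and Rps19, whose arrays did not overlap, the sign within any range was fixed in advance. Of the large subunit genes 39 of 44 had lower estimates (median −0.141), and of the small subunit genes 24 of 25 (median −0.100).

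The pairs of groups with the same p38α genotype use different arrays. In PyMT against MMTV-Cre, 58 members were lower and the median was −0.162, against 0.030 over all genes. limma called 0 members in either direction at an adjusted p below 0.05, where 0.382% of all genes were called lower and 0.881% higher. At an unadjusted p below 0.05 there were 20 members, 19 of them lower, or 29.0% of members against 13.8% of all genes. The arrays did not overlap for 22 lower members, where 2.65% of all genes were lower without overlap, and for 1 higher member, Rps27l, where 4.44% were higher. The smallest adjusted p were those of Rps18 (−0.46 ± 0.113, adjusted p = 0.0626), Rps9 (−0.53 ± 0.136, adjusted p = 0.0743) and Rpl13 (−0.56 ± 0.148, adjusted p = 0.0782, but 0.04 as the mean of its probe sets). On the higher side stood Rps27l (0.55 ± 0.182), Rpl14 (0.25 ± 0.271, but −0.004 without PyMT replicate 4) and Rps15a (0.14 ± 0.116). Limma with array weights, which count noisy arrays less, called 9 members, all lower, and leaving out p38a-lox replicate 2, which enters this comparison only through the shared spread, called 3.

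In p38a-lox PyMT against p38a-lox, 63 members were lower and the median was −0.099, against −0.021 over all genes. With unsuffixed probe sets 19 of the 29 members tested were lower and the median was −0.050, against −0.028 over all genes. Again limma called 0 members, where 0.229% of all genes were called lower and 0.548% higher, and 4 members passed an unadjusted p below 0.05, or 5.80% against 12.2% of all genes. There were 9 lower members without overlap (Rpl21, Rpl26, Rplp0, Rplp1, Rps13, Rps14, Rps18, Rps19 and Rps23), where 3.75% of all genes were. The named members on the lower side were Rpl13 (−0.37 ± 0.148, but 0.04 as the mean of its probe sets), Rpl21 (−0.25 ± 0.101) and Rps19 (−0.46 ± 0.199), and on the higher side Rps27l (0.53 ± 0.182), Rpl27 (0.07 ± 0.120) and Rpl39l (0.05 ± 0.111). Centring on the brightest genes turned Rpl27 to −0.05 and Rpl39l to −0.08, and Rpl27 was at −0.03 as the mean of its probe sets and at −0.008 without p38a-lox PyMT replicate 2. Across both pairs, 57 members (82.6%) were lower each time, against 30.5% of all genes. The members positive each time were Rpl14, Rpl27, Rpl30, Rpl39l and Rps27l. Over the 69 members the differences of both pairs correlated with Pearson's r = 0.77, against 0.63 over all genes, as a description across genes, which share the arrays and their scaling.

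**Figure D3:**
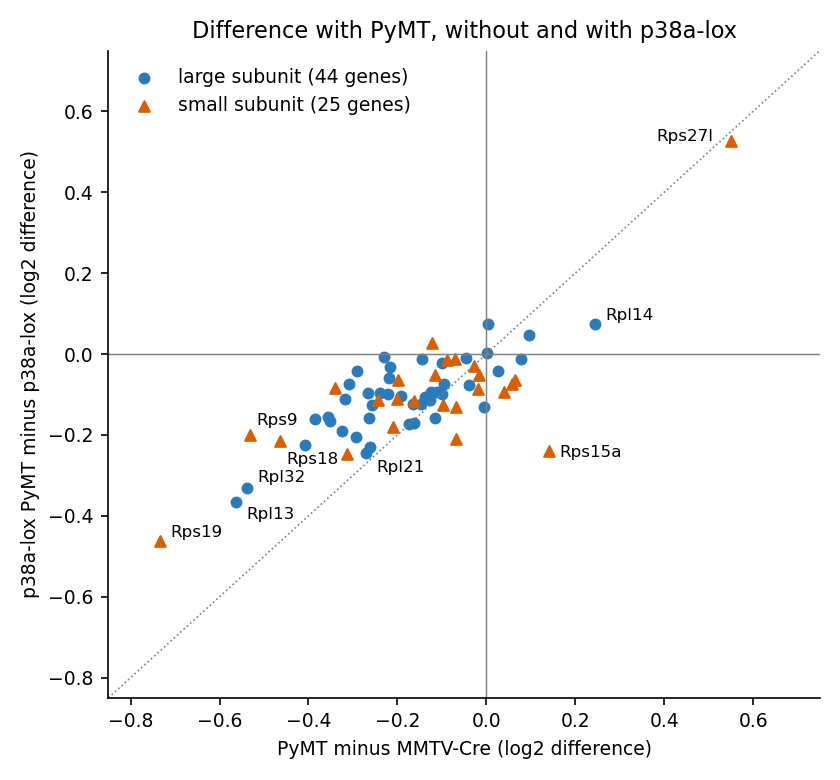
Log2 difference with PyMT for each of the 69 members, without floxed p38α (horizontal axis) and with it (vertical axis), by subunit; the dotted line marks equal differences. Most points lie in the lower left (57 members), and Rps27l lies farthest to the upper right.

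With 1 probe set per gene, the differences were larger among the dimmer probe sets above a mean of 10. Among the 65 members with a mean above 10, the median difference with PyMT was −0.310 for the 8 dimmest, −0.180 for the next 24 and −0.099 for the 33 with a mean of 12 or more. Spearman's rho between mean signal and difference was 0.588 over these 65 genes, given as a description. Other probe sets of the members did not all follow. Of 61 in all, 42 in 27 genes had a mean above 8, and 32 of these were lower with PyMT. Some dimmer ones among them were higher, such as those of Rpl37 (mean 8.47, 0.43 ± 0.092) and Rpl31 (mean 9.94, 0.53 ± 0.148). Below a mean of 8 they went both ways, for example Rpl41 (mean 6.92, 0.60 ± 0.189) and Rpl21 (mean 5.64, −0.30 ± 0.166 in the fit of all probe sets). The highest signal on any array was 13.09, and the part of the signal range in these differences was not tested. The median was similar with a pyrimidine run of at least 8 (−0.136, 21 members) and without (−0.126, 34 members), and with CGGAAG (−0.115, 40 members) and without (−0.156, 15 members).

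**Figure D4:**
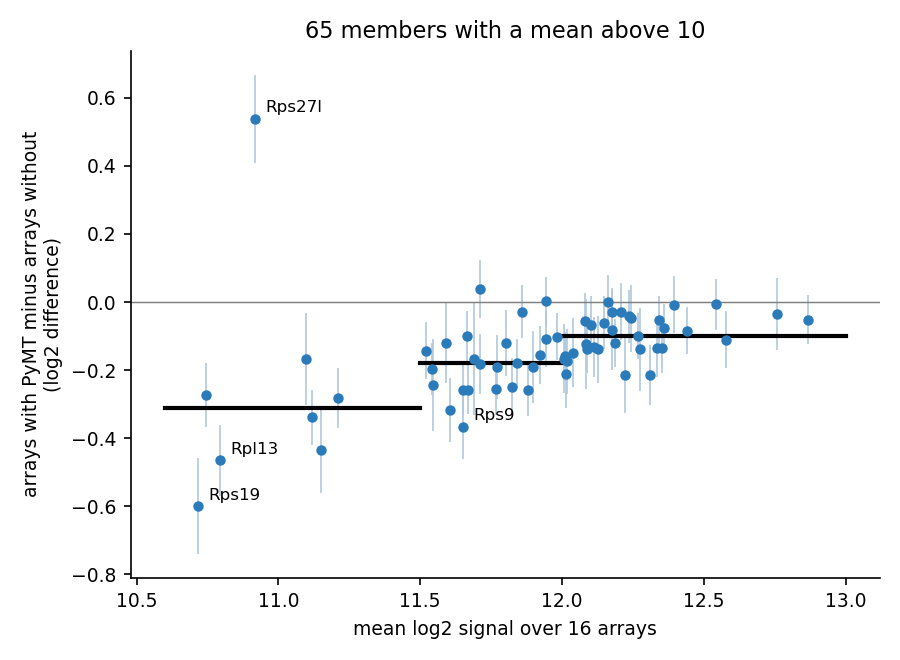
Difference between arrays with and without PyMT (log2, ± SE) against mean log2 signal for the 65 members with a mean above 10; black lines mark the medians within 3 ranges of signal. The medians are −0.310, −0.180 and −0.099 from the dimmest to the brightest range.

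Basal cell markers moved with the same comparison, in which 3.67% of all genes were called higher and 2.51% lower. Of 8 tested basal and myoepithelial markers, 7 were higher with PyMT and 4 were called, among them the basal keratins Krt5 (2.59 ± 0.508) and Krt14 (2.51 ± 0.472) and the basal transcription factor Trp63 (1.99 ± 0.276). The mean of the list ran from 5.37 to 7.57 in the arrays without PyMT and from 7.12 to 8.14 in those with it. The 12 luminal markers tested were divided evenly, 6 higher and 6 lower, with group means from 8.97 to 9.26. Of 10 myeloid markers 6 were higher and 4 lower (median 0.084), with Cd68 alone called (1.75 ± 0.396). Of 5 fibroblast markers tested 4 were higher (median 0.813), with Fbln1 alone called (0.81 ± 0.165). Of the 9 fibroblast markers on the arrays, Col1a2, Lum, Pdgfra and Dpt lay below the filter on low signal. Averaged over all arrays, 6 of 10 tested myeloid markers, Lyz2 and C1qb among them, were below 5, as were 3 of 6 lymphocyte markers (Cd3g, Cd2 and Cd79b) and 5 of 8 endothelial ones (Cdh5 and Kdr among them). The part of these cells in the ribosomal protein differences was not tested.

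Without PyMT, no ribosomal protein gene was called between p38a-lox and MMTV-Cre, and the sign of their median depended on 1 array. The estimates were higher in p38a-lox for 50 members and lower for 19, with a median of 0.034 against 0.000 over all genes. The median turned to −0.022 without p38a-lox replicate 2 and to −0.004 with array weights. Centring arrays on their medians moved members and all genes alike, to −0.006 and −0.040. Limma called 0 members and 0% of all genes, and 0 members passed an unadjusted p below 0.05, where 4.79% of all genes did. The named members were Rps15a (0.20 ± 0.116), Rps13 (0.19 ± 0.124, but −0.15 through another probe set) and Rpl30 (0.12 ± 0.103) on the higher side. On the lower side they were Rps18 (−0.08 ± 0.113), Rpl11 (−0.04 ± 0.109, but 0.04 as the mean of its probe sets and 0.01 when arrays were centred on their brightest genes) and Rplp0 (−0.05 ± 0.125, but 0.01 in the same setting). Among arrays with title numbers up to 2100, 2 against 2, the median was 0.103, against −0.023 over all genes. Among those above 2100, again 2 against 2, it was −0.020, against 0.012 over all genes.

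With PyMT, p38a-lox arrays had higher estimates for 58 of 69 members, with a median of 0.076 against −0.039 over all genes. Limma called 0 members and 0% of all genes. Rps9 was the 1 member at an unadjusted p below 0.05, or 1.45% of members where 3.58% of all genes passed. When arrays were centred on the mean of their brightest genes, the median of all genes shifted to −0.139 and that of the members to −0.023. Such centring moves every gene alike, and the members lay 0.115 above the median of all genes with and without it. Among arrays with title numbers up to 2100 the median was 0.128, against −0.062 over all genes. Among those above, with 1 PyMT array, it was 0.090, against 0.021 over all genes.

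All 4 p38a-lox PyMT arrays lay above all 4 PyMT arrays for Rps9, Rps13, Rps14 and Rps23, where 0.659% of all genes were higher without overlap. Rps13, which sits at the bridge between the subunits, read 11.209, 11.142, 11.169 and 11.265 in p38a-lox PyMT and 11.125, 10.776, 10.782 and 11.095 in PyMT, a difference of 0.25 ± 0.124. Rps14, on the platform of the small subunit, read 12.280, 12.275, 12.232 and 12.269 against 12.199, 12.114, 12.212 and 11.343, and PyMT replicate 4 lay far below the other 7. From the values given above, Rps9 differed by 0.34 ± 0.136 and Rps19 by 0.42 ± 0.199, the latter with overlap. Rps15a (−0.18 ± 0.116), Rps10 (−0.11 ± 0.111, but 0.24 through another probe set and 0.01 as the mean of all) and Rps28 (−0.09 ± 0.112) were lower.

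The difference between both p38a-lox effects was not called for any member by limma, nor for any gene (0%). The median over members was 0.058, against −0.039 over all genes, and the members lay 0.097 above all genes. Centring on the brightest genes moved both alike, to −0.095 and −0.192. The 1 member at an unadjusted p below 0.05 was Rps15a (−0.38 ± 0.165), where 2.82% of all genes passed, and its probe set lay near the filter. Rps9 (0.33 ± 0.193), Rps18 (0.25 ± 0.160) and Rpl11 (0.20 ± 0.154) were the next on the positive side, and Rps10 (−0.14 ± 0.157) and Rps28 (−0.13 ± 0.158) on the negative side. Averaged over both backgrounds, a comparison added after the data were seen, 65 members had higher estimates in p38a-lox arrays with a median of 0.057, against −0.019 over all genes. The median was 0.034 without p38a-lox replicate 2, 0.021 with 19 members lower without both arrays that stood apart, and 0.032 with 23 lower under array weights. Limma again called 0 members and 0% of all genes, and only Rps13 passed an unadjusted p below 0.05, where 5.17% of all genes did.

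A division of the arrays that cuts across the genotypes was compared as well, and no member was called in it. The numbers in the sample titles form a lower range (up to 2100, 9 arrays) and a higher range (above 2100, 7 arrays), and the labels do not say what these numbers mean. Both ranges occur in every group. In 30 of the 69 members (43.5%) the higher range differed from the lower in the same direction in all 4 groups, 20 lower and 10 higher, against 21.8% of all genes. With groups in the model, limma called 0 members, where 0.111% of all genes were called, and 14 members passed an unadjusted p below 0.05, or 20.3% against 15.3% of all genes.

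Rps6, the substrate of the S6 kinases, read from 12.496 to 12.986 in the lower range (median 12.935) and from 12.565 to 12.695 in the higher (median 12.600). Apart from PyMT replicate 4 at 12.496, every array of the lower range lay above every array of the higher. The difference was −0.28 ± 0.081 (adjusted p = 0.168). Rps7 was at −0.33 ± 0.088 and Rpl23a, at the exit of the peptide tunnel, at −0.42 ± 0.088 (adjusted p = 0.0956). Rps21 (0.21 ± 0.087), Rplp2 (0.22 ± 0.089) and Rpsa (0.17 ± 0.074) went the other way.

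The Actb control probe sets at the 5′ and 3′ ends of that mRNA, whose difference falls as RNA or labelled cDNA is shortened from the 5′ end, differed between the ranges. The 5′ minus 3′ signal ran from 0.116 to 0.543 in the lower range, from 0.285 without PyMT replicate 4, and from −0.099 to 0.109 in the higher. Per unit of it, limma called 0 members, where 0.916% of all genes were called, and 18 members passed an unadjusted p below 0.05, or 26.1% against 15.4% of all genes. Rpl23a (0.85 ± 0.194, adjusted p = 0.0611), Rps7 (0.72 ± 0.176) and Rps6 (0.64 ± 0.161) led. With this signal as a covariate the median PyMT difference was −0.121, and its part in the single differences was not tested beyond this.

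**Figure D5:**
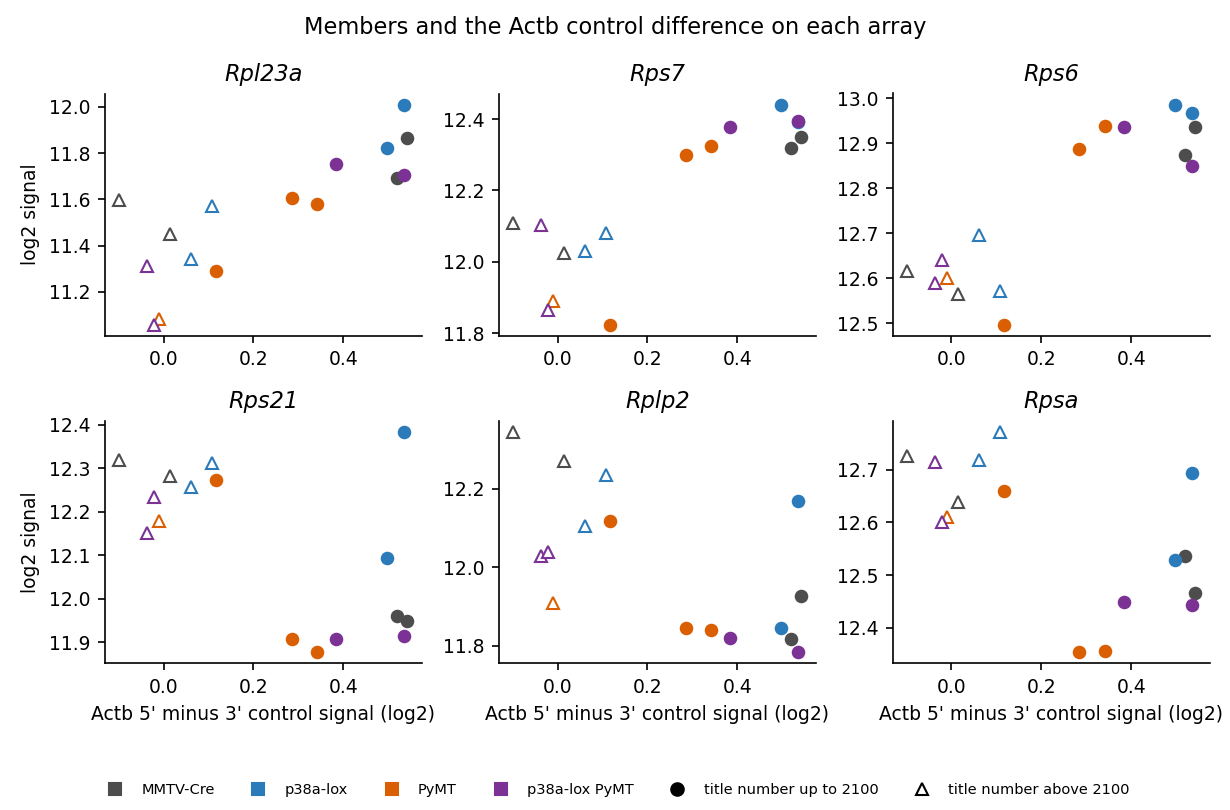
Log2 signal of 6 members on each of the 16 arrays against the Actb 5′ minus 3′ control signal, coloured by group (filled circles, title numbers up to 2100; open triangles, above 2100). Rpl23a, Rps7 and Rps6 are high where the control difference is high, while Rps21, Rplp2 and Rpsa are mostly low there.

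The stalk proteins Rplp0, Rplp1 and Rplp2, which recruit elongation factors to the ribosome, were all lower with PyMT without being called. Rplp0 averaged 12.44 ± 0.044 and 12.39 ± 0.067 in MMTV-Cre and p38a-lox and 12.12 ± 0.273 and 12.28 ± 0.033 in PyMT and p38a-lox PyMT, a difference of −0.21 ± 0.088 (adjusted p = 0.181). The values for Rplp1 and Rplp2 were −0.16 ± 0.073 and −0.17 ± 0.101, and for Rpsa, the laminin-binding protein of the small subunit, −0.11 ± 0.084.

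Among the paralogs, Rpl3l, the muscle form of Rpl3, and Rpl39l, the male germ cell form of Rpl39, stayed near the floor in every group, with group means from 4.14 to 4.34. Their common forms were at −0.12 ± 0.070 for Rpl3 and −0.06 ± 0.084 for Rpl39 with PyMT. Rpl36a was at −0.27 ± 0.094 (adjusted p = 0.101) and its retrogene Rpl36al at −0.12 ± 0.118. The members Rpl10 (−0.09 ± 0.069), Rps4x (−0.13 ± 0.088), Rpl22 (−0.17 ± 0.136) and Rpl7 (−0.19 ± 0.105), which have paralogs too, were not called.

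Other genes of translation gave a mixed picture between arrays with and without PyMT. In that comparison 3.67% of all genes were called higher and 2.51% lower, the shares to set beside each list below. In the list of elongation factors and other genes with terminal pyrimidine tracts, 16 of 17 were lower with a median of −0.201, and 1 was called, the RNA-binding protein Hnrnpa1 (−0.58 ± 0.140, adjusted p = 0.0230). The translation elongation factors Eef1a1 and Eef2 were at −0.07 ± 0.063 and −0.07 ± 0.086. Of the initiation factors 9 of 16 were lower (median −0.021, 0 called). By limma 1 of them passed an unadjusted p below 0.05, where 2835 of all 14410 genes did. Of the ribosome biogenesis factors 19 of 35 were lower (median −0.042). Of these biogenesis factors 1 was called, the nucleolar helicase Ddx21 (−0.65 ± 0.166, adjusted p = 0.0307).

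The mitochondrial ribosomal proteins, which are encoded in the nucleus but serve another ribosome, had higher estimates in 43 of 73 and a median of 0.073. Of these 73, Mrpl17 rose (0.82 ± 0.180) and Mrps31 fell (−0.52 ± 0.142), and no other was called, where 3.67% of all genes were called higher and 2.51% lower. In the mTORC1 list 10 of 16 genes were higher (median 0.094). Rheb, the activator of mTORC1, rose (0.61 ± 0.167) and Tsc1, part of the complex that inhibits Rheb, fell (−0.53 ± 0.114). These were the only genes of that list called, and mTORC1 activity was not tested. In the Myc network 7 of 11 were lower (median −0.165). Mycl fell (−0.90 ± 0.239) and Mlx rose (0.80 ± 0.178), the only genes of this list called. Myc itself was at −0.67 ± 0.293 (adjusted p = 0.210).

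In p38a-lox PyMT against PyMT, the elongation list was higher for 16 of 17 genes (median 0.182) and the biogenesis list for 25 of 35 (median 0.192). The median over all genes was −0.039. Limma called 0 genes in either list and 0% of all genes. At an unadjusted p below 0.05 there were 2 genes in each list, where 3.58% of all genes passed. In p38a-lox against MMTV-Cre, the elongation list was higher for 10 of 17 (median 0.011) and the biogenesis list lower for 30 of 35 (median −0.189). The median over all genes was 0.000. Again limma called 0 genes in either list and 0% of all genes. An unadjusted p below 0.05 was reached by 0 genes of the elongation list and 1 of the biogenesis list, where 4.79% of all genes passed.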

How the data were processed

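RNA of sorted luminal cells was measured on 16 arrays. Each probe set has 1 deposited log2 signal per array, which the authors made with RMA, per the submitters' processing notes. The sources used here give no version, settings or further correction. Of 45141 probe sets, 28898 carried 1 gene symbol in the platform annotation, 551 several and 15692 none; only the first were used, and 28689 of them matched RefSeq (GRCm38.p6) by gene ID. Each gene was its probe set of highest mean, and the 14410 genes with a mean of at least 3.67, the 25th percentile of all probe sets, were tested.

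A linear model with 4 group means over all arrays was fitted with limma 3.58.1 in R 4.3.3 (12 residual and 2.83 prior degrees of freedom, two-sided, with p-values adjusted by Benjamini and Hochberg's method over all tested genes and called below 0.05), after being tested on simulated data. Medians over members carry no test. Errors are SE for differences and SD for group means. The number of arrays limits the precision.

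Named genes are, for each comparison, the called members of smallest p, or 3 in each direction where fewer than 3 were called, plus paralogs, stalk genes and the most and least variable members, and from other lists those of smallest p; Rps14, Rpl26, Rps23, Rpl27a, Rpl35, Cdkn1a, Myc, Eef1a1, Eef2 and the members of the title-number pattern were named after their values were seen. The members and lists were chosen with earlier results of these data known. Both pooled comparisons, the title-number comparison and the Actb covariate were added after the data were seen. Alternatives changed the filter, the probe sets, the scaling, the weights, the arrays and a block for title numbers.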

Additional observations from a re-analysis of the deposited data

Results flagged for a closer look

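Among 128 groups of 4 arrays, for 31 named members and the mean over the members, 10 had an array far from the other 3 by Dixon's ratio at its usual critical value, or 7.81%; chance alone marks about 1 in 20. The p38a-lox replicate 2 was far above its group for Rpl13 (11.452, others up to 10.890), Rpl22 (11.569, others up to 11.075), Rpl30 (12.100, others up to 11.970) and Rps19 (11.783, others up to 10.881). The PyMT replicate 4 was far above for Rpl14 (9.072) and Rps15a (4.064) and far below for Rpl30 (11.742) and Rps4x (11.545). The remaining values were Rpl13 in PyMT replicate 3 (10.372, low) and Rpl11 in MMTV-Cre replicate 3 (11.973, high). Of these 10 values, 8 were on the 2 arrays with the lowest correlation to the others.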

How the results depend on the processing

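Each choice was changed alone in 13 settings, and each array was left out in turn. No paired analysis was possible because the labels carry no replicate numbers shared between groups. Members called with PyMT (8 arrays against 8) were 6, and 0 with unsuffixed probe sets. That setting tested 29 members, and of the 6 called it held only Rpl21. The number called was 10 with arrays centred on their medians and 3 with arrays centred on their brightest genes. It was 15 with array weights, and 3 to 8 leaving out 1 array. In PyMT against MMTV-Cre the 0 called became 1 without a filter or with title numbers as a block, 2 with the mean of probe sets, with median centring or without the 2 arrays that stood apart, 3 with a second quantile normalization, 9 with array weights and 0 to 3 leaving out 1 array. In p38a-lox PyMT against p38a-lox array weights called 1. Member medians moved to −0.097 (PyMT against MMTV-Cre, unsuffixed probe sets), and, centred on the brightest genes, to −0.221 (p38a-lox PyMT against p38a-lox), −0.023 (p38a-lox PyMT against PyMT) and −0.095 (difference of both p38a-lox effects), the last being 0.131 with median centring. In p38a-lox PyMT against p38a-lox the median was −0.048 with median centring and −0.050 with unsuffixed probe sets. Both centrings move all genes alike, so the members' distance from the median of all genes is the same under them. The median with PyMT stayed between −0.180 and −0.098.

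Of 36 differences of named members, 26 kept their sign throughout. With the mean of probe sets, Rpl13 turned to 0.044 in each PyMT comparison, Rpl27 to −0.030, Rps10 to 0.014 and Rpl11 to 0.041. With unsuffixed probe sets Rps13 turned to −0.153, Rpl11 to 0.125 and Rps10 to 0.238. Centring on the brightest genes turned Rpl11 to 0.010, Rplp0 to 0.008, Rpl27 to −0.048 and Rpl39l to −0.076. Rpl14 turned to −0.004 without both arrays and ran from −0.004 to 0.360 leaving out 1 array, and Rpl27 ran from −0.008 to 0.130. Beyond what each setting does by construction, the cause was not tested. Signals near the floor limit Rps15a, Rpl3l and Rpl39l.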
